A study of Mus musculus with 6 samples.

Results

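The measurements concern 7 mouse genes of leukocyte adhesion: the selectin Selp, the selectin ligands and ligand carriers Selplg, Glycam1 and Cd44, and the immunoglobulin-family adhesion molecules Vcam1, Icam1 and Icam2. They were taken as every probe whose gene name in the scanner files equals one of these symbols, which gave 12 of 39429 probes: 4 for Cd44, 2 each for Selplg and Vcam1, and 1 each for Selp, Glycam1, Icam1 and Icam2. All 12 probes passed the filter on dim signal, and the 7 genes were among 22097 genes tested. The RNA came from M-MDSCs, the monocytic class of myeloid-derived suppressor cells, which restrain T cells, sorted by flow cytometry from bone marrow or lungs of C57BL/6 mice. The treated mice had received Aza, read here as the DNA methyltransferase inhibitor azacytidine, together with the histone deacetylase inhibitor entinostat, and the mock mice had received vehicle and were 6 to 8 weeks old (the age of the treated mice is not among the labels). Each of 6 dual-colour arrays, 3 for bone marrow and 3 for lung, held 1 mock RNA from 1 to 2 mice in Cy3 and 1 treated RNA pooled from 3 to 6 mice in Cy5. Treated RNA was in Cy5 on every array, and the arrays of a tissue share a slide and a scan. Treatment and dye therefore cannot be told apart, and neither can tissue and slide. The labels call the arrays biological replicates and do not tie them to animals, and a p-value measures only the spread between these RNAs.

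Leukocytes leave the blood in steps. Selectins first catch sugar-decorated ligands so that a cell rolls along the vessel wall, and integrins on the leukocyte then bind immunoglobulin-family molecules on the endothelium for firm arrest. Vcam1 is bound by the alpha4 integrins, Icam1 and Icam2 by the beta2 integrins, and Cd44 is the main receptor for hyaluronan. Vcam1 is also made by some tissue macrophages, and Glycam1 is known from high endothelial venules of lymph nodes and from the lactating mammary gland.

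Of the 60-base probes, 5 are shown because the results turn on them: the single Glycam1 probe, the dimmer Vcam1 probe, which tests the brighter one, the Selplg probe that did not follow its partner, and the Cd44 probes on which 1 lung array stood apart. Positions are on build mm9 as the files give them, and all of these probes lie on the minus strand. They detect Glycam1 at chr15:103393339-103393398, Vcam1 at chr3:115828953-115829012, Selplg at chr5:114269206-114269265, and Cd44 at chr2:102677971-102678030 and chr2:102672645-102672704. Whether a probe lies in an exon or an untranslated region was not analysed here.
Glycam1 A_52_P602847: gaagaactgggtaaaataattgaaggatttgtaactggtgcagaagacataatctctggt
Vcam1 A_52_P520495: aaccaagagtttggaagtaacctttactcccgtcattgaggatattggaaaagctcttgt
Selplg A_55_P1976212: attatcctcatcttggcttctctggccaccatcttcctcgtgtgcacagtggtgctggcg
Cd44 A_55_P2166488: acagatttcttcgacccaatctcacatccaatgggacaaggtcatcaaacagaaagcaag
Cd44 A_55_P2166486: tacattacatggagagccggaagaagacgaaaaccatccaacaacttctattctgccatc

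Because the treatment includes an inhibitor of the enzymes that methylate cytosine in CG dinucleotides, the CG dinucleotides (letters CG, the same on either strand) were counted in the 250 bases before the start of each gene found in the RefSeq promoter table, which uses build GRCm38.p6 and held Selp, Cd44, Icam1 and Glycam1. The extremes are printed with CG in capitals: Glycam1 at chr15:103565082-103565331 on the minus strand and Icam1 at chr9:21015690-21015939 on the plus strand.
Glycam1 promoter: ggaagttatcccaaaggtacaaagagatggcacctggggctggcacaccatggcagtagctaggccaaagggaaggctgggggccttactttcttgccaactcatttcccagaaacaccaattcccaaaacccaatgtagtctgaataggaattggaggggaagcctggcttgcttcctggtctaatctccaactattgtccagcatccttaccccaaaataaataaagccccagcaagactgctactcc
Icam1 promoter: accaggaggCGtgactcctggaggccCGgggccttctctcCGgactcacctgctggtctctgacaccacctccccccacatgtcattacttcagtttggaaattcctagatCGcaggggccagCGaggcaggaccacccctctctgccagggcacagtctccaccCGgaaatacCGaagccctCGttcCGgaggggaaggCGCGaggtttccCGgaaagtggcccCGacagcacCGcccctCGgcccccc
The Glycam1 stretch held 0 CG dinucleotides, as did 7.86% of 32841 promoters of the same length, whose median was 6. The Icam1 stretch held 15, and 27.3% of promoters held as many or more. Selp had 3 and Cd44 had 5. Methylation itself was not measured, and the counts are a description of these windows.

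Median raw spot signals ranged from 71.6 to 100.9 intensity units in Cy3 and from 107.1 to 151.8 in Cy5, with 0 saturated spots. All 11 monocyte markers on the array were well above background on every array of every group. Their ratios of treated over mock cells were not level at an adjusted p below 0.05 (limma, log2 scale), with 1 higher and 4 lower of 11 in bone marrow (median -0.52) and 2 higher and 2 lower in lung (median 0.39). Cx3cr1 (-1.71), Csf1r (-1.14), Ccr2 (-0.84) and Ms4a6c (-0.67) fell in bone marrow and Ly6c1 rose (0.65, a call lost without any 1 bone marrow array), while in lung Ccr2 (-1.12) and Ms4a6c (-0.47) fell and Csf1r (0.76) and Itgam (0.64) rose. With median centring 0 of 11 passed in either tissue (limma, 2 higher and 1 lower in bone marrow and 3 and 1 in lung at an unadjusted p under 0.05). The part of these changes in the members' values was not tested. Genes listed as markers of other cell types were detected too, and whether their signal came from other cells was not tested. The summed level of 12 neutrophil markers lay between 480600 and 548500 intensity units in bone marrow and between 33290 and 155400 in lung, and each of 14 endothelial, 11 macrophage and 9 B cell markers was well above background on at least 1 lung array. In such samples a change in the number of cells of a type and a change in RNA per cell cannot be told apart.

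In lung, Vcam1 and Icam2 were higher in treated than in mock cells and Glycam1 and Selplg were lower, while Selp, Cd44 and Icam1 did not pass the test. In bone marrow only Selp passed, with a small increase near background. Thus 4 of 7 genes passed in lung, where 34.0% of all genes tested did, and 1 of 7 in bone marrow, where 14.4% did, at an adjusted p (Benjamini-Hochberg over all genes tested, limma) below 0.05. Values are log2 treated over mock, positive when the treated cells were higher, with the standard deviation over 3 arrays. The direction follows the dyes of the labels, while the headings of the authors' deposited ratios name mock over treated. The difference in response between the tissues passed for Vcam1 and Glycam1, 2 of 7 genes against 15.2% of all genes. Glycam1 was not well above background on any bone marrow array, so a decrease there could not have been seen.

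**Figure D1:**
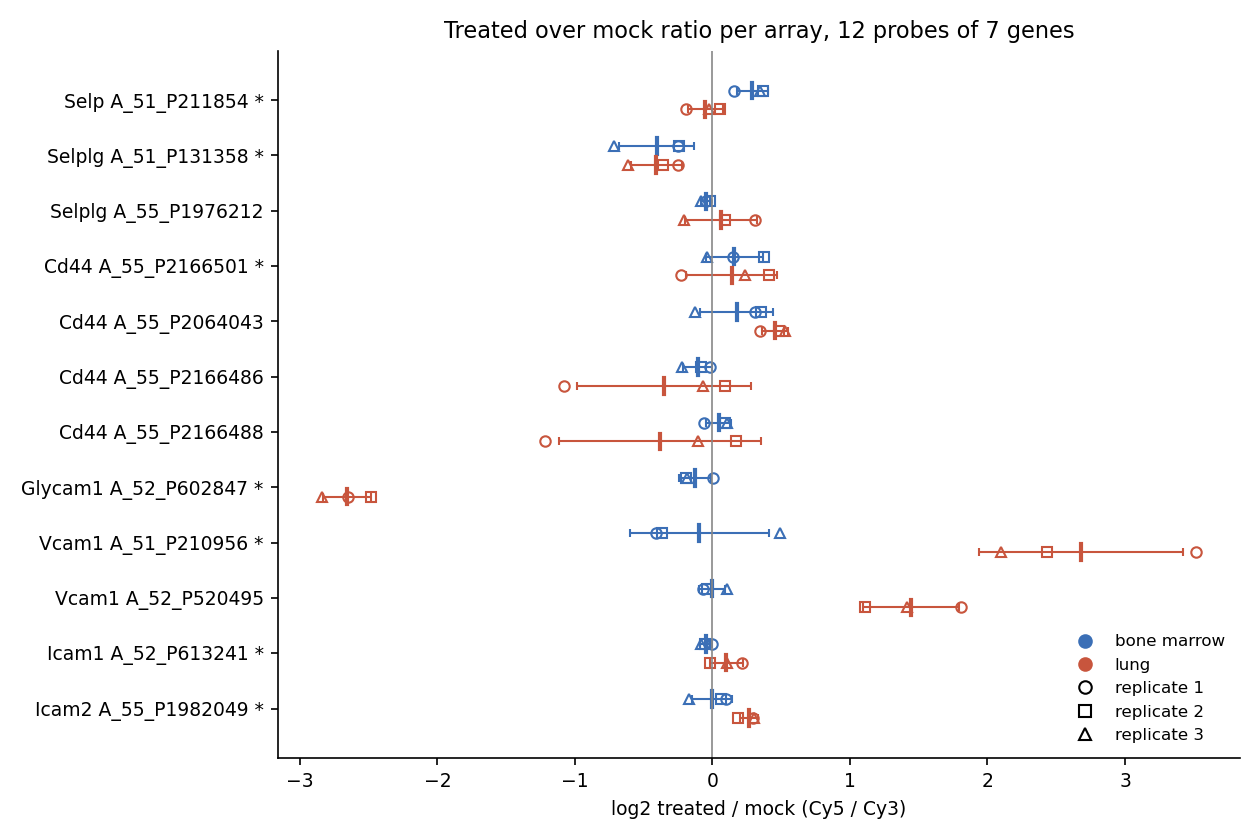
Log2 ratio of treated (Cy5) over mock (Cy3) on each array for the 12 probes, in bone marrow (blue) and lung (red); vertical ticks are means, whiskers standard deviations over 3 arrays, symbols the replicates, and an asterisk marks the brightest probe of a gene. The lung arrays stand far from 0 for Glycam1 (-2.84 to -2.48) and Vcam1 (2.10 to 3.52 on the brighter probe), the dimmer Vcam1 probe lies between 1.11 and 1.81 in lung, and all other points lie between -1.21 and 0.53, the lowest being lung replicate 1 on a Cd44 probe.

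Selp encodes P-selectin, stored in platelets and endothelial cells and brought to their surface on activation. Its probe at chr1:166079660-166079719 was spotted 10 times per array and gave log2 ratios of 0.16, 0.37 and 0.34 on the bone marrow arrays and -0.19, 0.06 and -0.02 on the lung arrays. The bone marrow arrays were all above 0 and above every lung array, which lay on either side of 0. The spots of 1 array varied with a standard deviation between 0.03 and 0.14. In bone marrow Selp was higher by 0.29 ± 0.11 (SD, n = 3; 1.22-fold; 95% interval 0.12 to 0.46; adjusted p = 0.040). In lung the mean was -0.05 ± 0.13 (interval -0.22 to 0.12, adjusted p = 0.63). The lung response minus that of bone marrow was -0.34 (adjusted p = 0.064).

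The Selp signal was close to background. After subtraction of the local background its mock signal in bone marrow was 61.8, 65.0 and 56.2 intensity units, where the median negative control spot had 39.8, 41.0 and 37.3. Its treated signal there was 74.7, 89.95 and 108.1, against 5.67, 6.03 and 7.49 in the negative control spots. The gap to the control spots was thus smaller in Cy3 than in Cy5, and the part of this in the ratio was not tested. The bone marrow call was lost without any single bone marrow array (adjusted p 0.058 to 0.20), without lung replicate 2 or 3 (0.064 and 0.062), with each tissue fitted on its own (0.051) and with median centring (0.28). On the processed signals of the scanner software it was 1.13.

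Of 10 platelet and megakaryocyte markers tested, 0 passed in limma in bone marrow in either direction (1 higher and 1 lower at an unadjusted p under 0.05), with a median log2 ratio of 0.10. With the background from negative control spots 3 were higher and 1 lower, with a median of 0.30. Over 16 alternatives 0 to 4 were higher and 0 to 1 lower, with medians from 0.07 to 0.80. The summed level of these markers lay between 1634 and 1878 units in mock and between 1697 and 1969 in treated bone marrow. In lung 3 rose and 2 fell (3 and 0 with median centring): Pf4 by 3.04, Ppbp by 2.25 and Clec1b by 1.34 in the first direction, Itgb3 (-0.71) and Gp9 (-0.33) in the second. Pf4 and Ppbp are platelet chemokines. Of the other platelet glycoprotein receptor genes, Gp1bb (0.03) did not pass, and Gp1ba and Gp5 did not pass the filter on dim signal. The part of platelets in the Selp values was not tested.

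Selplg encodes PSGL-1, the chief P-selectin ligand of myeloid cells. Its brighter probe, at chr5:114267807-114267834 (28 of its 60 bases have a position in the files), gave -0.25, -0.25 and -0.72 in bone marrow and -0.25, -0.36 and -0.61 in lung. Every array was below 0, replicate 3 lowest in either tissue. The means were -0.41 ± 0.27 in bone marrow (adjusted p = 0.051) and -0.41 ± 0.19 in lung (adjusted p = 0.026). The lung response minus the bone marrow response was -0.0016, with a 95% interval from -0.37 to 0.37.

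The second Selplg probe did not show this decrease. It gave -0.05, -0.02 and -0.08 in bone marrow, with a mean of -0.05 ± 0.03 (adjusted p = 0.76), and 0.31, 0.09 and -0.21 in lung, with a mean of 0.06 ± 0.26 (adjusted p = 0.64). The lung arrays lay on either side of 0. With the probes averaged, the lung value was -0.17 and no longer passed. The lung call was also lost with the background taken from negative control spots, with processed signals, with median centring (-0.14), and without lung replicate 2 or lung replicate 3.

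Glycam1 encodes a secreted mucin that carries selectin-binding sugars. In mock lung its level (log2 intensity, scaled between arrays) was 8.55, 9.06 and 9.52, well above background on all 3 arrays. In treated lung it was 5.90, 6.58 and 6.68, and only replicate 3 was well above background. The probe thus passed the filter on dim signal through mock lung alone, so comparisons with mock lung start from a group picked as bright. Mock and treated levels did not overlap, and the order of the arrays was the same in each channel. The log2 ratios were -2.65, -2.48 and -2.84, a mean of -2.66 ± 0.18 (SD, n = 3; 95% interval -2.85 to -2.47; adjusted p = 6.96e-06). With 2 of the 3 treated arrays not well above background, the direction is measured and the size is not: the mean was -4.59 with the background from negative control spots and -5.02 on processed signals, so the interval covers the spread between arrays only and no fold is given.

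In bone marrow Glycam1 was not well above background on any array in either channel. Its mock signal minus local background, between 45.6 and 53.1 intensity units, was near that of the negative control spots. The log2 ratios there, 0.0044, -0.20 and -0.19 (mean -0.13 ± 0.11, adjusted p = 0.32), are thus ratios of signals at background. The lung response minus the bone marrow response was -2.53 as fitted (adjusted p = 9.5e-05), a value with the same limit, and lay between -2.10 and -4.59 under the alternatives. The lung value kept its direction and its call under all 16 alternatives, between -2.47 and -5.02.

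Cd44 encodes a hyaluronan receptor whose transcripts are spliced in many forms, and its 4 probes did not behave alike. The brightest, at chr2:102654278-102654337, gave 0.15, 0.37 and -0.04 in bone marrow and -0.23, 0.41 and 0.24 in lung, on either side of 0 in each tissue. Its means were 0.16 ± 0.21 (adjusted p = 0.42) and 0.14 ± 0.33 (adjusted p = 0.44), with 95% intervals of -0.14 to 0.46 and -0.16 to 0.44. The probe at chr2:102651398-102651457, nearer the end of the gene on its minus strand, was higher on all 3 lung arrays, at 0.34, 0.49 and 0.53, a mean of 0.45 ± 0.10 (adjusted p = 0.010 over all probes). In bone marrow it gave 0.31, 0.35 and -0.13 (adjusted p = 0.25).

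The remaining pair of Cd44 probes lies further upstream on the same strand, and their sequences are printed above. In lung A_55_P2166488 gave -1.21, 0.17 and -0.10, and A_55_P2166486 gave -1.08, 0.09 and -0.07. Lung replicate 1 was far below the other arrays on each. On that array the brightest probe stood at -0.23 and the probe nearest the end at 0.34, so the probes of 1 gene were spread over more than 1 log2 unit there. The means of the upstream pair, -0.38 ± 0.73 and -0.35 ± 0.63, did not pass (adjusted p 0.23 and 0.21). In bone marrow they lay between -0.22 and 0.11 on every array.

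Vcam1 encodes the endothelial and stromal ligand of alpha4beta1 integrin. In mock lung the level of its brighter probe, at chr3:115813216-115813275, was 8.81, 9.64 and 10.40, and in treated lung it was 12.32, 12.07 and 12.50. The groups did not overlap, and the treated arrays lay much closer together than the mock arrays. Treated RNAs were pools of 3 to 6 mice and mock RNAs came from 1 to 2 mice, and the part of this in the spread was not tested. The log2 ratios were 3.52, 2.43 and 2.10, a mean of 2.68 ± 0.74 (SD, n = 3; 6.41-fold; 95% interval 2.04 to 3.32; adjusted p = 0.00047), the eighth highest ratio of the 22097 genes. The spread of the ratio followed the mock channel: replicate 1, with the lowest mock level, had the highest ratio.

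The dimmer Vcam1 probe showed the same direction with a smaller size. It gave 1.81, 1.11 and 1.42 in lung, all above 0, with a mean of 1.44 ± 0.35 (adjusted p = 0.00020). Its mock signal minus local background was 62.2 to 119.0 units. In bone marrow the brighter probe gave -0.41, -0.37 and 0.49 (mean -0.10 ± 0.51, adjusted p = 0.84) and the dimmer one -0.07, -0.04 and 0.11. Bone marrow replicate 3 was the only array there above 0, on either probe. The lung response minus the bone marrow response was 2.78 on the brighter probe (95% interval 1.88 to 3.68, adjusted p = 0.0051) and 1.45 on the dimmer one (adjusted p = 0.0027). Centring each array on its median instead of loess gave 2.59 for the former, which did not pass (adjusted p = 0.17). The lung increase itself passed under all 16 alternatives, between 2.06 and 2.97.

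Icam1, the inducible ligand of the beta2 integrins LFA-1 and Mac-1, did not pass in either tissue. Its ratios were -0.0012, -0.06 and -0.09 in bone marrow (mean -0.05 ± 0.04, 95% interval -0.20 to 0.10, adjusted p = 0.65) and 0.22, -0.02 and 0.11 in lung (mean 0.10 ± 0.12, interval -0.05 to 0.25, adjusted p = 0.28). With median centring the lung mean was 0.32 (adjusted p = 0.37). Its probe is at chr9:20832290-20832349.

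Icam2 is the constitutive beta2 integrin ligand of endothelium and of many leukocytes, and its probe is at chr11:106238971-106239030. In lung the ratios were 0.30, 0.19 and 0.30, all above 0, with a mean of 0.26 ± 0.07 (1.20-fold, adjusted p = 0.025). The channel levels overlapped, from 12.19 to 12.52 in mock and from 12.49 to 12.71 in treated lung. In bone marrow the ratios were 0.10, 0.06 and -0.17 (mean -0.0033 ± 0.15, adjusted p = 0.98). The lung call was lost without any 1 of the 3 lung arrays, with the negative control background, with processed signals and with median centring (adjusted p up to 0.39), and the difference between tissues, 0.27, did not pass (adjusted p = 0.11).

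The tissues were also compared within each treatment, on scaled channel levels. The scaling gave the spot intensities, averaged over both channels, the same distribution on every array. Glycam1, Icam1, Icam2 and Cd44 were higher in mock lung than in mock bone marrow and Selplg was lower. Glycam1 differed by 2.54 on the log2 scale (limma, adjusted p = 2.4e-05) and passed in all 11 alternatives, between 2.31 and 5.50. Bone marrow was not well above background on any array, so the size is not well measured and no fold is given. The probe passed the filter on dim signal through mock lung alone. Icam1 differed by 1.00 (2.00-fold, adjusted p = 1.2e-05), from 7.48 to 7.51 in bone marrow to 8.44 to 8.61 in lung, without overlap. Icam2 differed by 0.42 (adjusted p = 0.0070) and Cd44 by 0.39 (adjusted p = 0.015). Without scaling between arrays these were 1.67 and 1.63, and the Cd44 call was lost without bone marrow replicate 2 (0.32, adjusted p = 0.058). These 5 of 7 genes compare with 66.0% of all genes that passed between the tissues, so a pass is common here.

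**Figure D2:**
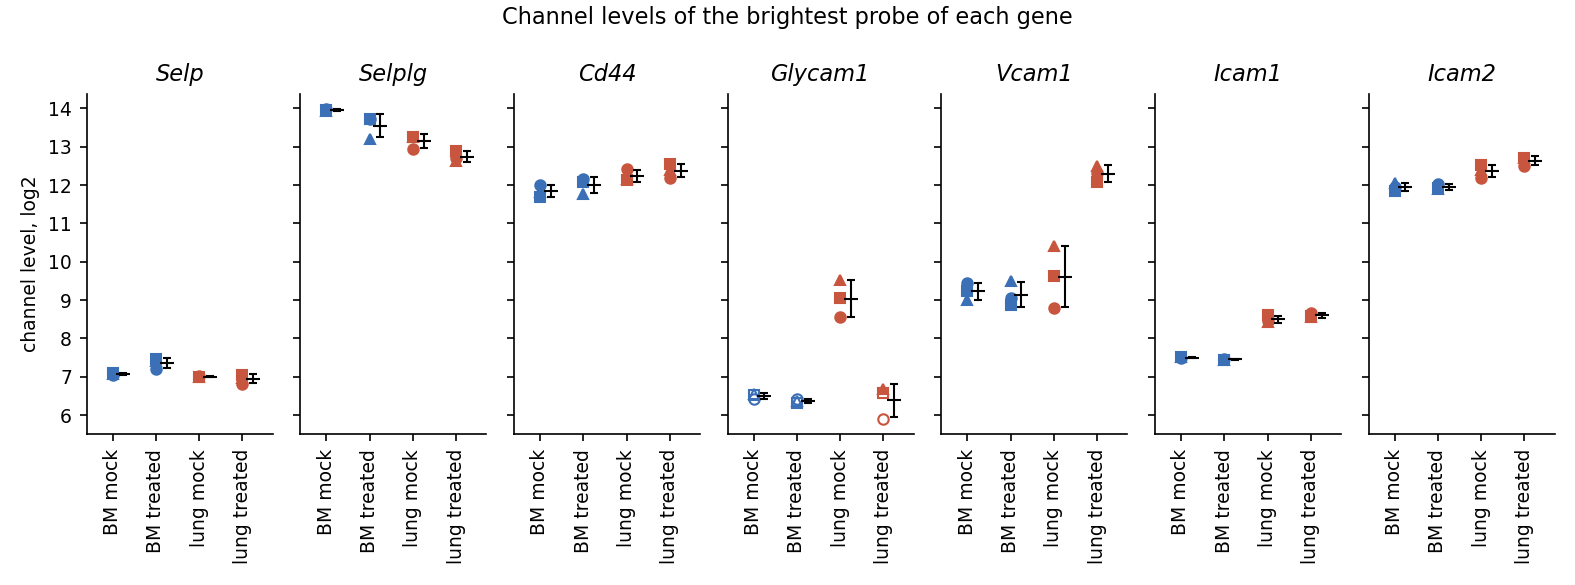
Channel levels (log2 intensity, scaled between arrays) of the brightest probe of each gene in mock and treated bone marrow (BM, blue) and lung (red); symbols are replicates as in the plot of ratios, filled where the spot was well above background, and bars are means with standard deviations (n = 3). Levels are read within a gene only. Glycam1 is filled in mock lung and on 1 treated lung array, and Vcam1 lies near 9 in both bone marrow groups, between 8.81 and 10.40 in mock lung and above 12 in treated lung.

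In treated cells Vcam1 and Glycam1 stood differently. Vcam1, which in mock cells did not pass between the tissues (0.38, 95% interval -0.43 to 1.19, adjusted p = 0.36), was 3.16 higher in treated lung than in treated bone marrow (8.92-fold, adjusted p = 4.5e-06). The mock difference of Vcam1 passed without lung replicate 1 (0.78, adjusted p = 0.012) and without scaling between arrays (1.31, adjusted p = 0.023), and was -0.01 without lung replicate 3. Glycam1 differed by 0.01 between the treated groups (interval -0.43 to 0.46), both of them at or near background, so no fold is given. Icam1 (1.15), Icam2 (0.69) and Cd44 (0.37) were again higher in lung, and Selplg (-0.81) and Selp (-0.41, adjusted p = 0.0092) were lower. The treated comparison passed for 6 of 7 genes and for 62.4% of all genes. The Cd44 call was lost in 7 of 11 alternatives.

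The tissue difference was also fitted per probe, and the probes of Selplg and Cd44 gave different sizes. The brighter Selplg probe was 1.75-fold lower in mock lung than in mock bone marrow (13.92 to 13.98 against 12.95 to 13.25, adjusted p = 0.00014 over all probes), and the other probe was 8.76-fold lower (13.86 to 14.30 against 10.697 to 11.16, adjusted p = 1.0e-06). Neither probe overlapped between the tissues. The brighter probe changed direction, to 0.65 higher in lung, when no scaling was applied between arrays (adjusted p = 0.018), under which the median of all genes was 0.33 in place of -0.04. The treated comparison turned likewise, to 0.65 (adjusted p = 0.033). For Cd44 the difference was 0.39 on the brightest probe and 1.32 on the probe nearest the end. It was 1.83 on A_55_P2166488 and 1.44 on A_55_P2166486 (adjusted p between 1.4e-06 and 2.5e-05 for these 3), with lung above bone marrow on all arrays of each.

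Genes that work with these members were read from lists of related genes. Among 10 other selectins and selectin carriers tested, 6 were higher and 1 lower in treated lung, with a median log2 ratio of 0.37 against 0.01 for all genes, and 2 were higher and 1 lower in treated bone marrow. With median centring 0 of the 10 passed in either tissue (limma, 5 higher and 1 lower in lung and 3 and 0 in bone marrow at an unadjusted p under 0.05), with a lung median of 0.59. Cd24a, a P-selectin ligand of myeloid cells, rose by 1.38 in lung and 1.05 in bone marrow, and Cd34, a sialomucin, by 1.17 and 1.66. Podxl, a related sialomucin, rose by 0.59 in lung (0.03 in bone marrow, adjusted p = 0.85). Madcam1, the mucosal addressin, fell by 0.51 in lung. Sele, E-selectin, did not pass the filter on dim signal.

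The enzymes that build selectin-binding sugars moved in opposite directions in lung, 3 higher and 6 lower of 14, with a median of -0.12. With median centring 1 was higher and 0 lower (limma, 3 and 0 at an unadjusted p under 0.05; median 0.01), and 4 were higher and 3 lower without lung replicate 3. St3gal6 (1.19), B4galt1 (1.00) and Gcnt1 (0.68), which act on the core 2 branch and its sialylation, were higher. St3gal4 (-0.76), Fut4 (-0.65) and C1galt1 (-0.64), a sialyltransferase, a fucosyltransferase and the core 1 galactosyltransferase, were lower. Fut7, the fucosyltransferase most tied to selectin ligands of leukocytes, was at 0.33 ± 0.42 and did not pass (adjusted p = 0.10). In bone marrow 1 of 14 was higher (C1galt1c1, 0.50) and 1 lower (St3gal3, -0.79).

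Of 15 other immunoglobulin-family and junction adhesion genes, 9 were higher and 0 lower in treated lung (limma, 9 and 0 at an unadjusted p under 0.05 too), with a median of 0.49. The higher genes included the junction proteins Nectin2 (1.08), Esam (0.99), Cdh5 (0.98) and Pecam1 (0.74). Cd47, which binds a leukocyte receptor of the signal regulatory family, was the lowest at -0.21 and did not pass (adjusted p = 0.12). Without lung replicate 1 the counts were 9 and 1, and with median centring 4 and 0. In bone marrow 2 were higher and 2 lower. Among 8 integrin genes that bind the members, 4 were higher and 1 lower in lung (2 and 0 with median centring). Itga4, the alpha4 chain that pairs to bind Vcam1, fell by 0.71 in lung and by 0.79 in bone marrow. Itga9 (1.65), Itgax (1.42), Itgam (0.64) and Itgb2 (0.41) rose in lung, the last 3 of them chains of the receptors for the Icam proteins.

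For Cd44, 15 ligands, linkers and proteases gave 6 higher and 2 lower genes in lung and 2 higher and 1 lower in bone marrow. With median centring these counts were 1 and 1 in lung and 0 and 0 in bone marrow (limma, 4 and 1 there at an unadjusted p under 0.05). Spp1, osteopontin, rose by 1.85 ± 0.25 in lung and 1.07 ± 0.10 in bone marrow. Hyal2, a hyaluronidase, rose by 0.71 and 0.34. Mmp14, a protease that cleaves Cd44, rose by 0.67 in lung, and Tnfaip6, which crosslinks hyaluronan, fell by 1.21 there. Among 5 other hyaluronan receptors Lyve1 (2.53 ± 0.35) and Stab1 (1.95 ± 0.47) rose in lung, where Stab2 (-0.21), Hmmr (0.20) and Layn (-0.06) did not pass.

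**Figure D3:**
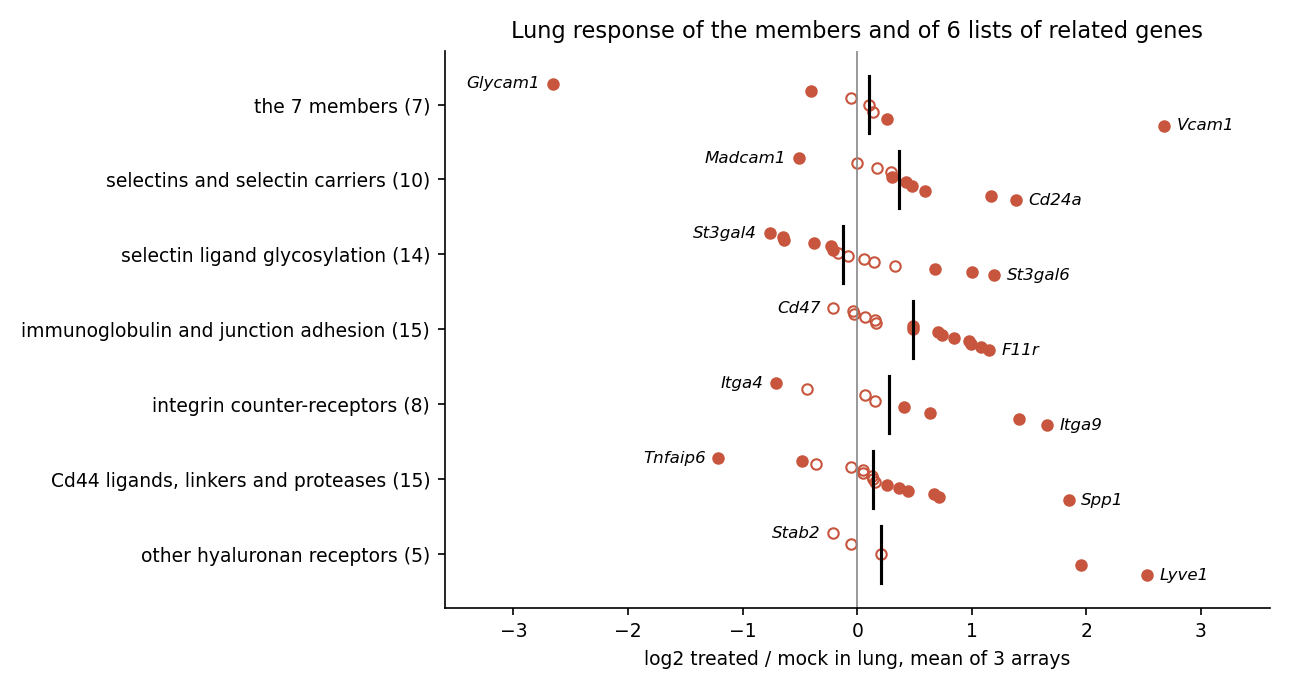
Mean log2 treated over mock in lung of the 7 genes and of 6 lists of related genes (number tested in brackets); each point is a gene, filled where the adjusted p was below 0.05, black ticks are list medians, and the lowest and highest gene of each list is named. Glycam1 (-2.66) and Vcam1 (2.68) lie beyond the lowest and highest gene of every list shown, Lyve1 at 2.53 being nearest to Vcam1.

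Markers of other cell types moved in the same lung arrays. Of 14 endothelial markers 13 rose and 0 fell (limma, 13 and 1 at an unadjusted p under 0.05; 8 and 0 with median centring), with a median of 0.97, and their summed level went from between 15030 and 20620 units in mock to between 33190 and 40400 in treated lung, while in bone marrow, where 8 of the 14 were not well above background on any mock array, 2 rose. Of 11 macrophage markers 9 rose and 0 fell (9 and 0 unadjusted, and under all 16 alternatives), with a median of 2.25, and the sum went from between 20200 and 29770 to between 90750 and 122200. Mrc1 (2.78), C1qb (2.49) and Mertk (2.28) were of the size of Vcam1. By array the macrophage median was 2.53, 2.10 and 1.89 where Vcam1 was 3.52, 2.43 and 2.10, and the endothelial median was 1.05, 0.76 and 1.11. Of 12 lung epithelial markers 8 rose and 0 fell (limma, 9 and 0 at an unadjusted p under 0.05; 5 and 0 with median centring), with a median of 1.12 and the surfactant genes Sftpa1 (2.32), Sftpd (2.26) and Sftpc (2.07) highest, and the sum went from between 17380 and 32190 to between 61940 and 95980. Of 12 neutrophil markers 7 rose and 0 fell (9 and 0 unadjusted; 1 and 0 with median centring), with a median of 1.34 and array medians of 1.86, 1.80 and -0.06 (4 rose without lung replicate 1, 3 without replicate 2 and 10 without replicate 3), and the sum went from between 33290 and 64810 to between 77160 and 155400. Of 10 fibroblast and stromal markers 0 rose and 2 fell, Dcn (-0.56) and Lum (-0.51), with a median of 0.30 (limma, 1 and 2 at an unadjusted p under 0.05). With median centring 0 of these 10 passed (1 and 0 unadjusted), while 2 rose and 2 fell without lung replicate 1. The part of any of these cells in the Vcam1 and Icam2 values was not tested.

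B cell markers fell with Glycam1. All 9 tested were lower in treated lung (7 to 9 over the alternatives), with a median of -1.51, and 0 of 9 passed in bone marrow (limma, 1 higher and 0 lower at an unadjusted p under 0.05), where 6 were not well above background on any mock array. Mzb1 (-2.07 ± 0.09), Ms4a1 (-2.17 ± 0.59) and Pou2af1 (-1.87 ± 0.22) were closest in size. The sum was between 8848 and 12260 units in mock lung and between 2833 and 4636 in treated lung. By array the B cell median was -1.04, -1.51 and -1.81 where Glycam1 was -2.65, -2.48 and -2.84. Among 10 NK cell markers 0 rose and 3 fell in treated lung, with a median of -0.16 and Gzma (-1.32) the lowest (limma, 1 and 4 at an unadjusted p under 0.05). Among 9 T cell markers 1 rose and 2 fell, with a median of -0.24 (1 and 4 unadjusted). With median centring 0 of either list passed (0 higher and 3 lower NK cell markers unadjusted). Of 6 high endothelial venule markers Madcam1 (-0.51) and Chst4 (-0.21) fell and Gcnt1 (0.68) rose. Madcam1, Gcnt1 and Fut7 were also well above background on every bone marrow array, so the list is not particular to lung venules. With median centring 0 of the 6 passed (limma, 1 higher and 1 lower at an unadjusted p under 0.05). Chst4 was well above background on 2 mock and 0 treated lung arrays, so its ratio is near background. The sum of the 6 lay between 2312 and 3183 in mock and between 3308 and 3529 in treated lung. The mammary genes Csn3 (0.08) and Lalba (-0.03) did not pass, and the other 4 milk protein genes did not pass the filter on dim signal. The part of B cells, other lymphocytes, venules or gland in the Glycam1 value was not tested.

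**Figure D4:**
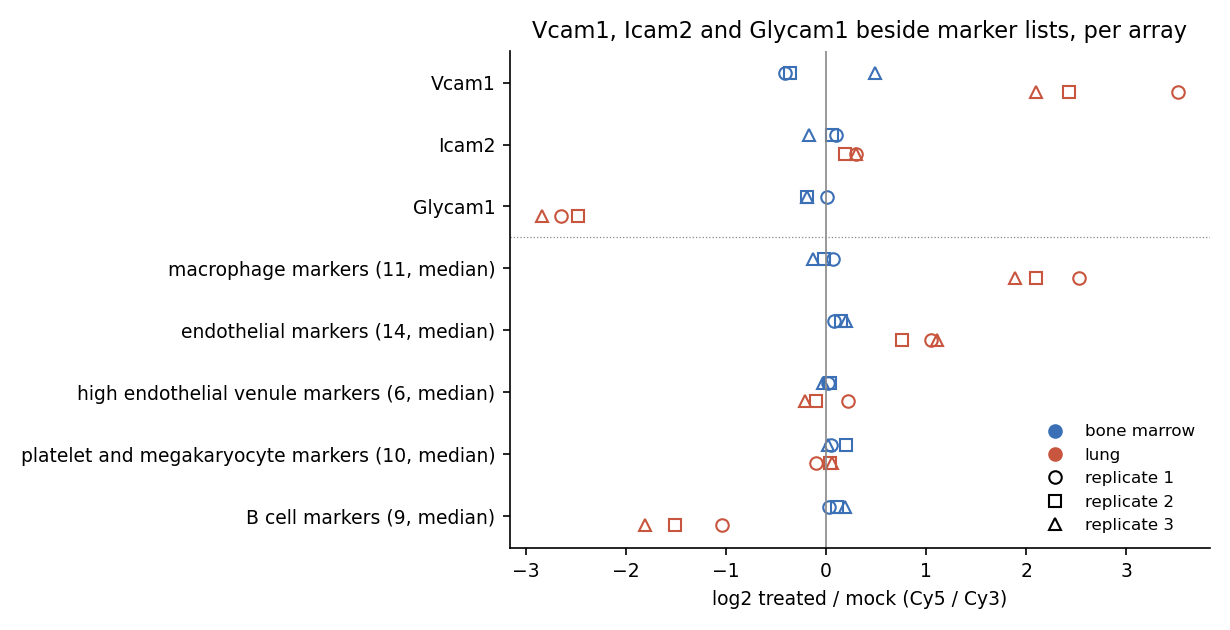
Log2 treated over mock on each array for Vcam1, Icam2 and Glycam1 (brightest probe) and the median of 5 marker lists (genes tested in brackets), in bone marrow (blue) and lung (red), symbols as in the plot of ratios. Lung arrays lie to the right of 0 for Vcam1 and the macrophage and endothelial lists and to the left for Glycam1 and the B cell list, while bone marrow medians lie between -0.13 and 0.20.

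Across the 12 channel levels, which share arrays and fall into 2 tissues, the likeness of a gene's profile was described by Pearson's r. The genes most like Glycam1 were Calhm6 (0.98), C1galt1 (0.96) and Gjb2 (0.96). Calhm6, a calcium homeostasis modulator channel, stood at -1.49 ± 0.27 in lung and -0.13 in bone marrow. Those most like Vcam1 were Psd3, 4833411C07Rik and Zdhhc14 (0.98 each), with lung ratios of 2.09, 1.04 and 1.05. Selplg was closest to Klf13 (0.99), C3 (0.99) and Slc37a4 (0.99), and Icam1 to Serping1, Amz1 and Sparc (0.99 each). Icam2 was closest to Galnt15, Slc25a37 and Arhgap6 (0.98 each). Cd44 was closest to Gas7 (0.93), Psg23 (0.92) and Clec4e (0.92), and Selp to Ttll10 (0.96), Nnmt (0.95) and Gnb5 (0.94). Among the members themselves r was highest for Icam1 with Icam2 (0.92) and lowest for Selplg with Icam1 (-0.84), both of which follow the tissue difference, and Glycam1 with Vcam1 gave -0.17.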

How the data were processed

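Total RNA (about 400 ng per cDNA synthesis) of sorted M-MDSCs was hybridised to dual-colour Agilent arrays. The deposited scanner files give each spot's raw, background and processed intensity and a log10 ratio of the processed signals, written by Agilent Feature Extraction 10.7.3.1 with mm9 probe positions, per the file headers. The deposited matrices hold log2 ratios that the authors made with limma, per the labels; their headings name mock over treated, but the values ran with Cy5 over Cy3 (r 0.9995 or more on every array), and the dyes of the labels were followed.

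Mean signals were corrected against median local background by normexp (offset 50) and loess within arrays, with control spots at weight 0 (limma 3.58.1, R 4.3.3, statmod 1.5.0). Control and outlier spots were dropped and spots of a probe averaged. Probes marked well above background on 2 or more arrays of 1 tissue and channel were kept (27695), and each gene took its brightest probe. A single fit over 6 arrays (4 residual, 3.52 prior degrees of freedom) tested both responses and their difference, so each tissue's p carries the spread of the other. Tissue levels were fitted per channel after Aquantile scaling. Negative control spots kept 290.3 Cy5 units after correction (offset included) on the first bone marrow array and 137 on the second lung array, against 63.3 to 66.0 on the other arrays, so a background taken from these spots was run as an alternative. The number of arrays limits the precision. The scripts were tested on simulated data. The members and the lists, some of which share genes (Cdh5, Esam, Pecam1, Emcn, Madcam1, Chst4, Fut7, Gcnt1 and Itgam stand in 2 lists), were chosen with earlier results of these data known. Beyond the members, the text names up to 4 genes of a list with the smallest p, any gene of a list of at most 5, the 3 genes most like each member, and others named after their values were seen to show members that did not pass or that bear on a member. A gene of the lists is not reported here, and the counts leave it out.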

Additional observations from a re-analysis of the deposited data

Results flagged for a closer look

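A test of the difference between the lung and bone marrow responses passed for Vcam1 and Glycam1. For Vcam1 the lung response was 2.78 log2 units above that of bone marrow (2.68 against -0.10, adjusted p = 0.0051 in limma). All 3 lung arrays and 1 of 3 bone marrow arrays were above 0. The Vcam1 difference did not pass with median centring (limma, adjusted p = 0.17), and it was 1.45 on the dimmer probe. For Glycam1 the difference was -2.53 (-2.66 against -0.13, limma, adjusted p = 9.5e-05), with all 3 lung arrays below 0. Its signal was not well above background on any bone marrow array, so a decrease there could not have been seen. The pass is thus not a measured difference in response. The signal was also not well above background on 2 of 3 treated lung arrays, so the size is not well measured. The difference was -4.59 with the background from negative control spots and -2.10 with median centring.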

How the results depend on the processing

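Of 3180 genes called in bone marrow, the count became 5083 with the background from negative control spots, 6464 with processed signals and 0 with median centring (limma, 3951 at an unadjusted p under 0.05), and 995 to 4078 with 1 array left out (1573, 995 and 1199 without bone marrow replicate 1, 2 or 3, and 1918 without lung replicate 2). The lung count of 7510 (4410 higher, 3100 lower) became 964 with median centring (891 higher, 73 lower). The count for the difference between tissues, 3368, became 33 with median centring and lay between 1504 and 2848 with 1 array left out (1968, 1504 and 2239 without bone marrow replicate 1, 2 or 3). Mock lung against mock bone marrow, 14574 genes (6542 higher, 8032 lower), became 9467 without scaling between arrays (8146 higher, 1321 lower), and the treated comparison, 13779 (6272 higher, 7507 lower), became 9404 (8008 higher, 1396 lower). In the last setting Selplg reversed to 0.65 in either comparison. The cause was not tested.

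Of the 7 genes, 4 passed in lung, 3 without lung replicate 1, 2 without lung replicate 2 or 3, and 2 with median centring, processed signals or the negative control background; Vcam1 and Glycam1 passed throughout. Of all 22097 genes, 6146, 5271 and 5144 passed in lung without lung replicate 1, 2 or 3. With median centring, processed signals and the negative control background these were 964, 6432 and 7130. In bone marrow 0 of the 7 passed without any 1 bone marrow array. There 1573, 995 and 1199 of all 22097 genes passed without replicate 1, 2 or 3, so 0 of 7 was near the share of all genes. The list counts under the alternatives were chosen after seeing the data.

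Same-numbered arrays of the tissues correlated with r of 0.0004, 0.12 and 0.05 over 22091 genes. Arrays with different numbers correlated with r between -0.12 and 0.04. Whether the replicate numbers pair the tissues is not settled by these values. With the replicate block 2859, 13545 and 12909 genes passed in the difference, mock and treated comparisons, and the Cd44 call in treated cells was lost. Selp, and Glycam1 outside mock lung, are limited by signal near background.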
